A study of Mus musculus with 594 samples.

Results

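The genes described here encode the machinery of regulated secretion, by which endocrine cells store peptide hormones in dense-core granules and release them on a calcium signal. They were taken from a list of 43 symbols, and 39 of them were measured among the 11807 genes of the arrays. Sv2c, Rab3d, Rph3al and Unc13a had no probe set of their own in the annotation used and were not analysed here. Each gene was read through 1 probe set, the one with the highest mean.

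The study treated 2 mouse pancreatic endocrine lines with 29 chromatin-targeting small molecules for 1, 6 or 24 h and profiled RNA on 594 Affymetrix HT arrays, 299 of αTC1 and 295 of βTC3. αTC1 is a glucagon-producing line and βTC3 an insulin-producing line, both derived from tumours of mice that carry the large T oncogene of a simian virus under a hormone gene promoter, so both are dividing tumour cells. Controls received the solvent DMSO, with 10 to 14 arrays per line and time. Most compound groups held 3 arrays (168 groups), 5 held 2 and 1 held 4. The labels do not say whether replicates were separate cultures, so p-values measure the spread between these arrays, which may be technical.

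Of the compounds, 8 were histone deacetylase inhibitors of the hydroxamic acid type, namely trichostatin A at 0.22 µM, SAHA at 1.3 µM, LBH-589 at 0.015 µM, PXD101 at 2.4 µM, ITF-2357 at 10 µM, CRA-024781 at 1.5 µM, pyroxamide at 10 µM and scriptaid at 2 µM. Another 3 were ortho-amino anilide inhibitors, MS-275 at 2.9 µM, CI-994 at 10 µM and MGCD-0103 at 1.1 µM. The 2 cyclic tetrapeptides were apicidin at 1.4 µM and HC-toxin at 0.12 µM. The remaining named compounds were BIX-01294, AMI-1, 5-azadeoxycytidine, zebuarine and RG-0108, each at 10 µM, and chaetocin at 1.7 µM. The 10 compounds known by a code were BRD-A94377914 at 3 µM, BRD-K17311666 at 4.3 µM, BRD-K22912318 at 5 µM, BRD-K62233722 at 3.7 µM, BRD-K90919562 at 4.1 µM, BRD-K92415738 at 3.2 µM, BRD6929 at 0.91 µM, and BRD5298, BRD8451 and BRD9773 at 10 µM. Each compound was given at 1 dose, so values averaged over a class cover unequal doses. Errors and p-values of a class come from the spread between arrays of the same treatment. They leave out the spread between the compounds of a class.

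In regulated exocytosis, a granule is carried to the plasma membrane by Rab proteins, held there by docking factors such as RIM, and made release-ready by priming factors of the Munc13 and CAPS families. Fusion is driven by SNARE proteins on the granule (VAMP) and on the plasma membrane (syntaxin and SNAP25), clamped by complexins and triggered by the calcium sensors of the synaptotagmin family. Inside the granule, chromogranins and secretogranins condense with the hormone, while processing enzymes complete the peptide. Neurons use closely related proteins, and many of these genes carry promoter elements for the cAMP response factor CREB or for the neuronal repressor REST.

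The promoter windows searched covered 32 of the 43 genes. They were 38 windows of 300 bases that run from 250 bases before a RefSeq transcription start to 50 after it (mouse build GRCm38.p6). The other genes had no window in the set searched, which need not mean that their promoter sequence is unavailable. All windows here means the 32851 windows of that set, which may not hold every promoter of the genome. Both strands were searched for the letters TGACGTCA, the full cAMP response element, which were found in 4 of the 38 windows (10.5%), against 1.79% of all 32851 windows. The genes were Scg2, Chgb, Napa and Syn1. The left part of the REST motif, TTCAGCACC, was found in the windows of Scg2, Unc13a, Ptprn2 and Syn1 (10.5% against 0.371%). The right part of that motif was found in Unc13a and Ptprn2 (5.26% against 0.137%). The E-box CAGATG, searched as a comparison, stood in 4 windows (10.5% against 17.2%). The windows of these genes had a median of 61.3% GC and 18 CpG sites, against 52.7% and 7 over all windows, so they differ from the average promoter in base composition too.

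The 250 bases before the start of Scg2, Chgb and Syn1 are shown because these genes hold the full cAMP response element and were among those that rose in αTC1. In βTC3 under hydroxamic acids at 24 h, Scg2 fell and Chgb and Syn1 did not pass the test. Other genes that rose in αTC1, such as Scg3, Rab3b, Syn2 and Pclo, had no such element in the windows searched. Any part of the element in these changes was not tested. Capitals mark that element and, in Syn1, also the left part of the REST motif. In Scg2 the left part of the REST motif begins 7 bases before the start and runs past it, so it is not marked. The element begins 68 bases before the start in Scg2 (chr1:79440027-79440276, minus strand), 72 bases before it in Chgb (chr2:132781392-132781641, plus strand) and 159 bases before it in Syn1 (chrX:20920919-20921168, minus strand). Napa also rose in αTC1, but its element begins 7 bases before the start and runs past it, so it is not whole in these 250 bases and is not printed.
Scg2: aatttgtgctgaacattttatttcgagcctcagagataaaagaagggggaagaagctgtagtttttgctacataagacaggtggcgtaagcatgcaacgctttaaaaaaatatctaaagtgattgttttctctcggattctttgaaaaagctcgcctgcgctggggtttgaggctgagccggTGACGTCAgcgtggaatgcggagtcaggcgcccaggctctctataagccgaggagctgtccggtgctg
Chgb: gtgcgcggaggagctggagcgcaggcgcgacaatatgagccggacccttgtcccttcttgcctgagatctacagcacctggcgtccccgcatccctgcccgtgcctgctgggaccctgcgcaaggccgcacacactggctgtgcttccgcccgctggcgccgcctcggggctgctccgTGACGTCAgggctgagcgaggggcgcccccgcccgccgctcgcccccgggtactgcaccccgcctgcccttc
Syn1: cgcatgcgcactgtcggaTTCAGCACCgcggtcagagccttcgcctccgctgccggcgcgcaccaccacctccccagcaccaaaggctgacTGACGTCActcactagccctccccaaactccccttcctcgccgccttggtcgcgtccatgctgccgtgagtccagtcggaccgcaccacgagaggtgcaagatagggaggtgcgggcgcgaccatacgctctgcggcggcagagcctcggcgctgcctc
In Ptprn2 both parts of the REST motif stood side by side on the opposite strand, in bases 4 to 22 after the start (chr12:116485723-116485741, plus strand as printed). The whole stretch is in capitals.
Ptprn2: GGCGCTGTCCGGTGCTGAA
A match is a run of letters, and binding was not measured in these data. Rest itself was at a mean log2 intensity of 2.96 in αTC1 and 3.08 in βTC3 at 24 h in DMSO.

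The line labels were checked against marker genes in the 24 h DMSO arrays. In αTC1, Gcg was at a mean log2 intensity of 12.32 and Irx1 at 7.48, against 8.79 and 3.08 in βTC3. In βTC3, Ins2 was at 13.20 and Pdx1 at 9.20, and Ins2 was at 4.31 in αTC1. Yet βTC3 also held the delta cell hormone Sst at 12.71, its Gcg arrays ran from 6.18 to 10.43, and the beta cell glucose transporter Slc2a2 was at 2.98. The other delta cell marker, Hhex, was low, at 3.29 in βTC3 and 3.52 in αTC1. Markers of acinar, duct, endothelial, leukocyte and fibroblast cells lay between 2.63 and 3.86, apart from Cela1 at 6.05 in αTC1, while 5 neuronal markers lay between 6.66 and 10.50 in both lines. A gene at 3.86 or lower lies in the range of those markers of other cell types, and a difference against such a level may understate the change. In DMSO at 24 h this held for Syt1, Syt7, Doc2b and Rab27a in both lines, for Vamp8 in αTC1 and for Rab27b and Unc13b in βTC3. In RNA from whole cultures, fewer cells of a type and less RNA per cell cannot be told apart. No 2 arrays held identical values.

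The untreated lines differed in most of the machinery. In DMSO at 24 h, 12 of the 39 genes were higher and 21 lower in αTC1 (limma with Benjamini-Hochberg adjustment over all genes, adjusted p under 0.05), beside 59.2% of all genes in either direction. By role, 5 SNARE genes were higher and 6 lower, 3 Rab and priming genes higher and 5 lower, and 2 granule cargo genes higher and 7 lower. The cargo list, which holds chromogranins, secretogranins and processing enzymes, was thus mostly higher in βTC3. The fits at 1 and 6 h called 33 of the 39 genes too, beside 59.6% and 59.4% of all genes.

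**Figure D1:**
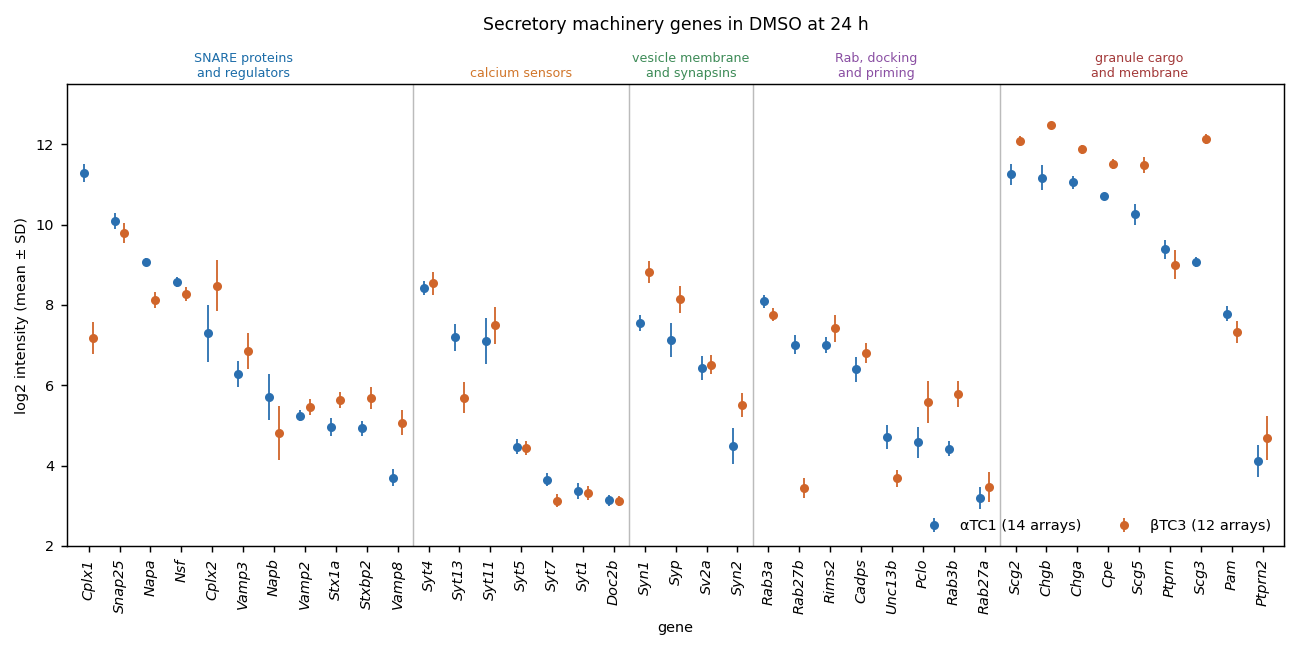
Mean log2 intensity with SD of each of the 39 genes in 24 h DMSO arrays of αTC1 (14 arrays) and βTC3 (12 arrays), ordered by role. Levels can be compared between the lines within a gene, and not between genes. Cplx1 and Rab27b stand far higher in αTC1, and Scg3 far higher in βTC3.

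The widest measured gap was in Cplx1, complexin 1, which binds the assembled SNARE bundle and restrains fusion. Its log2 intensity ran from 10.83 to 11.53 (median 11.32) in the 14 αTC1 arrays and from 6.49 to 7.67 (median 7.26) in the 12 βTC3 arrays. The groups did not overlap, and αTC1 was higher by 4.06 ± 0.09 on the log2 scale (SE, adjusted p = 1.1e-84). Cplx2, the related complexin, went the other way, at a mean of 7.29 ± 0.71 in αTC1 and 8.48 ± 0.63 in βTC3 (SD).

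Among Rab proteins, Rab27b, a granule Rab, was at 7.01 ± 0.23 in αTC1 and 3.45 ± 0.25 in βTC3, a gap of 3.57 ± 0.12 (adjusted p = 6.7e-62). Its βTC3 level lies in the range of the markers of other cell types, so this gap may be understated. The arrays of the lines did not overlap, the lowest in αTC1 being 6.62 and the highest in βTC3 3.98. Rab3b, a vesicle Rab of secretory cells, was lower in αTC1 by -1.36 ± 0.10, while the priming factor Unc13b was higher by 1.02 ± 0.13 and Syt13 by 1.50 ± 0.11.

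Of the granule proteins, Scg3, secretogranin III, which ties chromogranin A to the granule membrane, was at 9.07 ± 0.12 in αTC1 and 12.13 ± 0.13 in βTC3. No αTC1 array exceeded 9.30 and no βTC3 array fell under 11.94, and the difference was -3.06 ± 0.06 (adjusted p = 9.4e-92). Chgb was lower in αTC1 by -1.32 ± 0.06, Scg5 by -1.23 ± 0.10, Scg2 by -0.84 ± 0.07, Cpe by -0.82 ± 0.07 and Chga by -0.80 ± 0.05. Pam, the amidating enzyme, and Ptprn, a granule membrane protein, were higher in αTC1 by 0.46 ± 0.12 and 0.37 ± 0.08. Doc2b, Syt1, Syt4, Syt5, Syt11 and Sv2a did not pass the test between the lines, with differences from -0.37 (Syt11) to 0.04 (Syt1).

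Time in DMSO moved few of these genes. Between 1 and 24 h, 3 of 39 fell in αTC1 beside 5.06% of all genes called: Syt5 by 0.31, Chga by 0.20 and Scg3 by 0.16 on the log2 scale. In βTC3 limma called 0 (7 at an unadjusted p under 0.05, beside 10.3% of all genes). Between 1 and 6 h it called 0 in either line, with 2 in each at an unadjusted p under 0.05, beside 1.63% of all genes in αTC1 and 1.49% in βTC3.

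At 1 h after compound no gene of the list was called. Limma called 0 of 1131 gene and compound pairs in each line, with 52 pairs in αTC1 and 40 in βTC3 at an unadjusted p under 0.05, beside 0.0327% and 0.0943% over all genes. The 3 inhibitor classes called 0 too, with 1 gene each in αTC1 and between 0 and 3 in βTC3 at an unadjusted p under 0.05, beside 0.593%, 0.0169% and 0.0593% of all genes called in αTC1 and 0.906%, 0.0254% and 0.0254% in βTC3 under hydroxamic acids, anilides and tetrapeptides.

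At 6 h the calls were many, at shares close to those over all genes for the hydroxamic acids. In αTC1, 15 genes rose and 5 fell under hydroxamic acids (50.9% of all genes called), 15 rose and 3 fell under anilides (26.6%), and 14 rose and 4 fell under cyclic tetrapeptides (39.1%). In βTC3, 10 rose and 11 fell (50.3%), 13 rose and 1 fell (29.4%), and 8 rose and 4 fell (38.9%), in the same order. All comparisons within a line and time share the same DMSO arrays.

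At 24 h each class was counted beside the share of all genes called in each direction. In αTC1 under hydroxamic acids, 50.4% of all genes were called, 26.1% higher and 24.3% lower, and of the 39 genes 18 rose and 9 fell. Under anilides (43.8% of all genes, 21.2% higher and 22.5% lower) 18 rose and 6 fell, and under cyclic tetrapeptides (36.0%, 17.8% and 18.2%) 17 rose and 3 fell. In βTC3 under hydroxamic acids (43.2%, 22.5% and 20.7%) 11 rose and 12 fell. Under anilides there (43.7%, 22.0% and 21.7%) 21 rose and 7 fell, and under tetrapeptides (25.5%, 13.1% and 12.4%) 7 rose and 5 fell. The βTC3 result for tetrapeptides rested on apicidin, since HC-toxin alone called 2. The median change over the 39 genes at 24 h was 0.04 in αTC1 and -0.03 in βTC3 under hydroxamic acids, and 0.20 and 0.21 under anilides. Over all genes the same medians were 0.00, 0.01, -0.01 and -0.02.

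**Figure D2:**
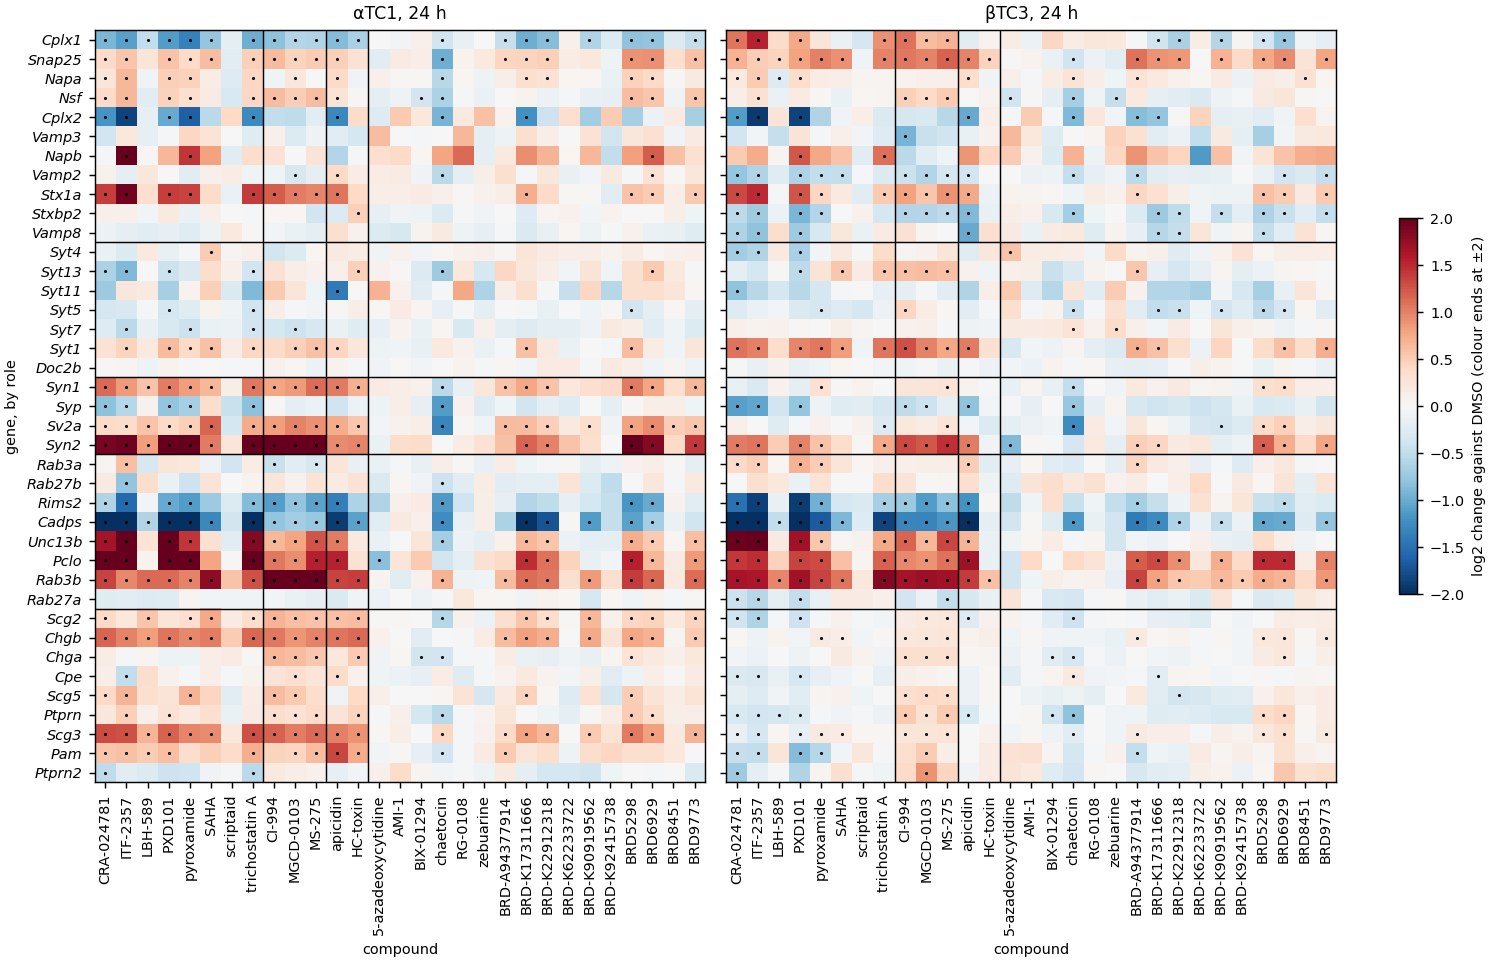
Log2 change against DMSO at 24 h of the 39 genes (rows, grouped by role) under the 29 compounds (columns) in αTC1 and βTC3, on a colour scale that ends at 2 in either direction. Dots mark an adjusted p under 0.05, and black lines separate the compound classes and the roles. Rab3b is raised and Cadps lowered across most deacetylase inhibitors in both lines, while the cargo genes are raised mainly in αTC1.

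The SNARE group covers the fusion proteins and the factors that assemble or take them apart. At 24 h hydroxamic acids raised 5 of 11 and lowered 2 in αTC1 (median change 0.04), and raised 5 and lowered 4 in βTC3 (median 0.06). The anilides raised 3 and lowered 2 in αTC1 (median -0.09) and raised 4 and lowered 3 in βTC3 (median 0.09). Over all genes hydroxamic acids raised 26.1% and lowered 24.3% in αTC1 and 22.5% and 20.7% in βTC3. The anilide shares were 21.2% and 22.5% in αTC1 and 22.0% and 21.7% in βTC3.

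Stx1a, syntaxin 1A, the plasma membrane SNARE that pairs with SNAP25, rose early under hydroxamic acids. At 6 h in αTC1 its log2 intensity was 4.79 to 5.61 (median 5.03) in 14 DMSO arrays and 5.66 to 6.90 (median 6.09) in 24 hydroxamic acid arrays. In βTC3 it was 5.53 to 6.32 (median 5.75) in 10 DMSO arrays and 6.36 to 7.34 (median 6.85) in 24. In both lines every hydroxamic acid array lay above every DMSO array, and the changes were 1.05 ± 0.06 (adjusted p = 1.1e-24) and 1.13 ± 0.07 (adjusted p = 1.4e-23). Under anilides at 6 h Stx1a did not pass the test in αTC1 (-0.07 ± 0.09) and fell in βTC3 by 0.35 ± 0.09 (adjusted p = 0.0016). By 24 h the anilides had raised it in both lines, by 1.07 ± 0.13 and 0.76 ± 0.08.

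Snap25, the partner of Stx1a, rose at 24 h under all 3 classes in both lines. In βTC3 its 12 DMSO arrays ran from 9.47 to 10.28 (median 9.79) and its 9 anilide arrays from 10.42 to 11.16 (median 11.04), without overlap. The change was 1.07 ± 0.08 (adjusted p = 4.9e-19), beside 0.66 ± 0.06 under hydroxamic acids and 0.73 ± 0.09 under tetrapeptides. In αTC1 the same changes were 0.53 ± 0.09, 0.38 ± 0.06 and 0.39 ± 0.09.

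The granule SNARE Vamp2 and the syntaxin-binding protein Stxbp2 fell in βTC3. At 24 h under hydroxamic acids Vamp2 fell by 0.44 ± 0.06 and Stxbp2 by 0.39 ± 0.08, and under anilides by 0.45 ± 0.08 and 0.57 ± 0.10. In αTC1 their hydroxamic acid changes were 0.01 ± 0.06 and 0.04 ± 0.08, and the lines differed under that class by 0.46 ± 0.09 for Vamp2 and 0.43 ± 0.11 for Stxbp2. The anilides lowered Vamp2 in αTC1 too, by 0.20 ± 0.08 (adjusted p = 0.039), and Stxbp2 was at -0.10 ± 0.12 there. Counted over single compounds, Stxbp2 fell with 15 and Vamp2 with 13 of the 29 in βTC3. Of the factors that recycle SNARE bundles, Napa rose by 0.26 ± 0.04 in αTC1 and 0.15 ± 0.04 in βTC3 under hydroxamic acids, and the ATPase Nsf rose under anilides by 0.57 ± 0.08 and 0.46 ± 0.07. Napb, a neuronal relative of Napa, rose under hydroxamic acids by 0.63 ± 0.20 and 0.60 ± 0.20, with the widest errors of the group. The SNAREs Vamp8 and Vamp3 fell in βTC3, Vamp8 by 0.23 ± 0.08 under hydroxamic acids and Vamp3 by 0.59 ± 0.19 under anilides, and in αTC1 were at -0.10 ± 0.09 and -0.09 ± 0.18, without a line difference that passed the test.

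Cplx1 moved in opposite directions in the lines. At 24 h in αTC1 its 14 DMSO arrays ran from 10.83 to 11.53 (median 11.32), its 22 hydroxamic acid arrays from 9.95 to 11.06 (median 10.40) and its 8 anilide arrays from 10.38 to 10.80 (median 10.59). In βTC3 its 12 DMSO arrays ran from 6.49 to 7.67 (median 7.26), its 24 hydroxamic acid arrays from 6.57 to 8.46 (median 7.78) and its 9 anilide arrays up to 8.85 (median 7.90). In αTC1 all 8 anilide arrays and 19 of 22 hydroxamic acid arrays lay below the DMSO range, while in βTC3 8 of 9 and 13 of 24 lay above it. The changes were -0.86 ± 0.06 and 0.55 ± 0.07 under hydroxamic acids and -0.67 ± 0.08 and 0.79 ± 0.10 under anilides. The difference between the lines was -1.47 ± 0.11 (limma interaction, adjusted p = 7.7e-25) and -1.51 ± 0.14 (adjusted p = 1.5e-18).

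The βTC3 rise of Cplx1 did not extend to every compound. It rose with 7 compounds, from MGCD-0103 (0.62 ± 0.14) to ITF-2357 (1.54 ± 0.15), and fell with 5 code-named compounds, from BRD5298 (-0.39 ± 0.14) to BRD6929 (-0.76 ± 0.14). The 3 arrays were at 8.07, 8.20 and 8.32 under ITF-2357 and at 6.53, 6.57 and 6.57 under BRD6929, so these groups lay far apart. In αTC1 it fell with 20 compounds and rose with none. Cplx2 fell under hydroxamic acids in both lines, by 0.90 ± 0.20 and 0.68 ± 0.15.

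Among the calcium sensors the class changes named here at 24 h were below 1 on the log2 scale, apart from Syt1 in βTC3 under anilides. At 24 h hydroxamic acids raised 1 of 7 and lowered 3 in αTC1, and raised 1 and lowered 1 in βTC3. Over all genes they raised 26.1% and lowered 24.3% in αTC1, and raised 22.5% and lowered 20.7% in βTC3. The anilides raised 1 and lowered 1 in αTC1 and raised 3 in βTC3, beside 21.2% of all genes higher and 22.5% lower in αTC1 and 22.0% and 21.7% in βTC3. Syt1, the fast sensor of synaptic vesicles, rose from a DMSO level in the range of the markers of other cell types. In βTC3 at 24 h its 12 DMSO arrays ran from 2.99 to 3.49 (median 3.35) and its 9 anilide arrays from 3.83 to 4.93 (median 4.15). The groups did not overlap, and the change was 1.01 ± 0.11 (adjusted p = 2.6e-13), against 0.48 ± 0.12 in αTC1.

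Syt13, an atypical synaptotagmin that does not bind calcium, fell in αTC1 under hydroxamic acids by 0.27 ± 0.08 and rose in βTC3 under anilides by 0.60 ± 0.12. Syt7, a high-affinity sensor of hormone granules, fell in αTC1 by 0.29 ± 0.07 and 0.36 ± 0.10 under hydroxamic acids and anilides, from a DMSO mean of 3.65. At 6 h Syt13 fell under hydroxamic acids by 0.30 ± 0.08 in αTC1 and 0.20 ± 0.08 in βTC3 and rose under anilides by 0.51 ± 0.11 and 0.53 ± 0.10. Syt4, an inhibitory relative of the fast sensors, fell under hydroxamic acids at 6 h by 0.48 ± 0.07 and 0.37 ± 0.07, and at 24 h was at 0.04 ± 0.08 and -0.16 ± 0.09. Syt11 passed the test under no class at 6 or 24 h, with wide errors of 0.16 to 0.31.

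Syt5 fell by 0.21 ± 0.07 in αTC1 and 0.22 ± 0.07 in βTC3 under hydroxamic acids. Doc2b, a soluble calcium sensor, was called with no compound in either line at 24 h, with changes between -0.18 and 0.19.

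The vesicle membrane and synapsin genes mostly rose in αTC1. Of 4 measured, 3 rose and 1 fell under hydroxamic acids at 24 h (median 0.63), and 3 rose under anilides (median 0.92). In βTC3, 1 rose and 1 fell (median -0.03), and 3 rose and 1 fell (median 0.23). Of all genes, hydroxamic acids raised 26.1% and lowered 24.3% in αTC1, and raised 22.5% and lowered 20.7% in βTC3. The anilides raised 21.2% and lowered 22.5% of all genes in αTC1, and raised 22.0% and lowered 21.7% in βTC3.

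Syn2, synapsin II, which tethers vesicles to the cytoskeleton, was raised at 6 h with no overlap with DMSO. In αTC1 its DMSO arrays ran from 3.61 to 5.05 (median 4.73) and its 24 hydroxamic acid arrays from 5.80 to 6.76 (median 6.18). In βTC3 they ran from 5.09 to 6.06 (median 5.49) and from 6.65 to 7.45 (median 7.02). The changes were 1.56 ± 0.10 (adjusted p = 6.6e-23) and 1.49 ± 0.08 (adjusted p = 2.3e-27). At 24 h the hydroxamic acid change was 1.54 ± 0.12 in αTC1 and 0.66 ± 0.09 in βTC3, a difference between the lines of 0.83 ± 0.15 (adjusted p = 2.7e-06). Under anilides it reached 2.27 ± 0.16 in αTC1, a 4.81-fold rise, and 1.34 ± 0.11 in βTC3.

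Syn1, synapsin I, rose at 24 h in αTC1 by 0.78 ± 0.07 under hydroxamic acids and 0.92 ± 0.10 under anilides. In βTC3 its hydroxamic acid change was -0.02 ± 0.06, and the anilides raised it by 0.25 ± 0.08 (adjusted p = 0.0039). Under hydroxamic acids the lines differed by 0.78 ± 0.12 (adjusted p = 1.1e-08). Sv2a, a vesicle glycoprotein, rose in αTC1 by 0.47 ± 0.06 and 0.92 ± 0.08, and in βTC3 was at -0.03 ± 0.06 and rose by 0.21 ± 0.07. At 6 h under hydroxamic acids it had risen by 0.89 ± 0.07 and 0.64 ± 0.07, with all 24 βTC3 arrays above the DMSO range. Syp, synaptophysin, the most used vesicle marker, fell under hydroxamic acids by 0.46 ± 0.10 in αTC1 and 0.52 ± 0.09 in βTC3.

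Rab, docking and priming genes held the widest changes in both directions. At 24 h hydroxamic acids raised 3 of 8 and lowered 2 in αTC1, and raised 4 and lowered 2 in βTC3. The anilides raised 3 and lowered 3 in each line. Of all genes, 50.4% were called in αTC1 and 43.2% in βTC3 under hydroxamic acids, and 43.8% and 43.7% under anilides. The median absolute change of the 8 genes was 0.96 and 0.94 under hydroxamic acids, against 0.16 and 0.12 over all genes.

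Rab3b rose with 20 of the 29 compounds in each line at 24 h, the most of any gene of the list in βTC3. In αTC1 its 14 DMSO arrays ran from 4.04 to 4.66 (median 4.49), its 22 hydroxamic acid arrays from 4.70 to 6.48 (median 5.58) and its 8 anilide arrays from 6.19 to 7.19 (median 6.65). No treated array of these classes overlapped with DMSO. The changes were 1.15 ± 0.08 (adjusted p = 7e-20) and 2.29 ± 0.12 (adjusted p = 3.6e-27), the latter 4.89-fold. In βTC3 they were 1.30 ± 0.07 and 1.69 ± 0.09, and 21 of 24 hydroxamic acid arrays lay above the DMSO range.

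Pclo, piccolo, a scaffold of release sites, rose at 24 h by 1.70 ± 0.13 in αTC1 and 0.98 ± 0.11 in βTC3 under hydroxamic acids. Its DMSO arrays in αTC1 ran from 3.96 to 5.24 (median 4.57) and its hydroxamic acid arrays from 4.31 to 8.06 (median 6.47), with 17 of 22 above the DMSO range. Unc13b, a Munc13 priming factor, rose by 1.18 ± 0.11 and 0.92 ± 0.11. At 6 h all 24 hydroxamic acid arrays of Unc13b in αTC1 lay above DMSO, with a change of 1.11 ± 0.09, whereas the anilide change was 0.13 ± 0.12 (adjusted p = 0.52).

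Cadps, CAPS-1, which primes dense-core granules, had the largest measured fall. At 24 h in αTC1 its 14 DMSO arrays ran from 5.90 to 6.96 (median 6.43) and its 22 hydroxamic acid arrays from 3.38 to 6.60 (median 4.40). In βTC3 its 12 DMSO arrays ran from 6.15 to 7.12 (median 6.82) and its 24 hydroxamic acid arrays from 3.43 to 6.79 (median 5.19). In each line 18 of these treated arrays lay below the DMSO range and none above it. The changes were -1.75 ± 0.12 (3.36-fold lower, adjusted p = 7.3e-22) and -1.77 ± 0.08 (3.40-fold lower, adjusted p = 4.1e-31). Over single compounds Cadps fell with 18 in αTC1 and 19 in βTC3 and rose with none.

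Under anilides Cadps was called in opposite directions at the 2 times in αTC1, from 0.42 ± 0.12 at 6 h (adjusted p = 0.0069) to -0.75 ± 0.16 at 24 h (adjusted p = 5.7e-05). In βTC3 they were at 0.18 ± 0.08 at 6 h (adjusted p = 0.11) and -1.27 ± 0.10 at 24 h. Rims2, a RIM docking factor, fell at 6 h by 1.30 ± 0.11 and 1.44 ± 0.11 under hydroxamic acids, and every βTC3 array (5.25 to 6.58) lay below DMSO (6.75 to 7.72). Its anilide changes at 6 h were -0.16 ± 0.16 and -0.34 ± 0.14, and at 24 h -0.99 ± 0.18 and -0.89 ± 0.13.

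Of the other Rab genes, Rab27b, the granule Rab with the higher level in αTC1, rose there at 6 h by 0.55 ± 0.09 under hydroxamic acids and 0.67 ± 0.13 under anilides, and at 24 h was at -0.06 ± 0.10 and 0.20 ± 0.13. Rab3a, a synaptic vesicle Rab, fell in βTC3 at 6 h under hydroxamic acids by 0.34 ± 0.06 and rose at 24 h by 0.31 ± 0.06. Rab27a, a granule Rab, fell in βTC3 at 24 h under anilides by 0.33 ± 0.11.

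**Figure D3:**
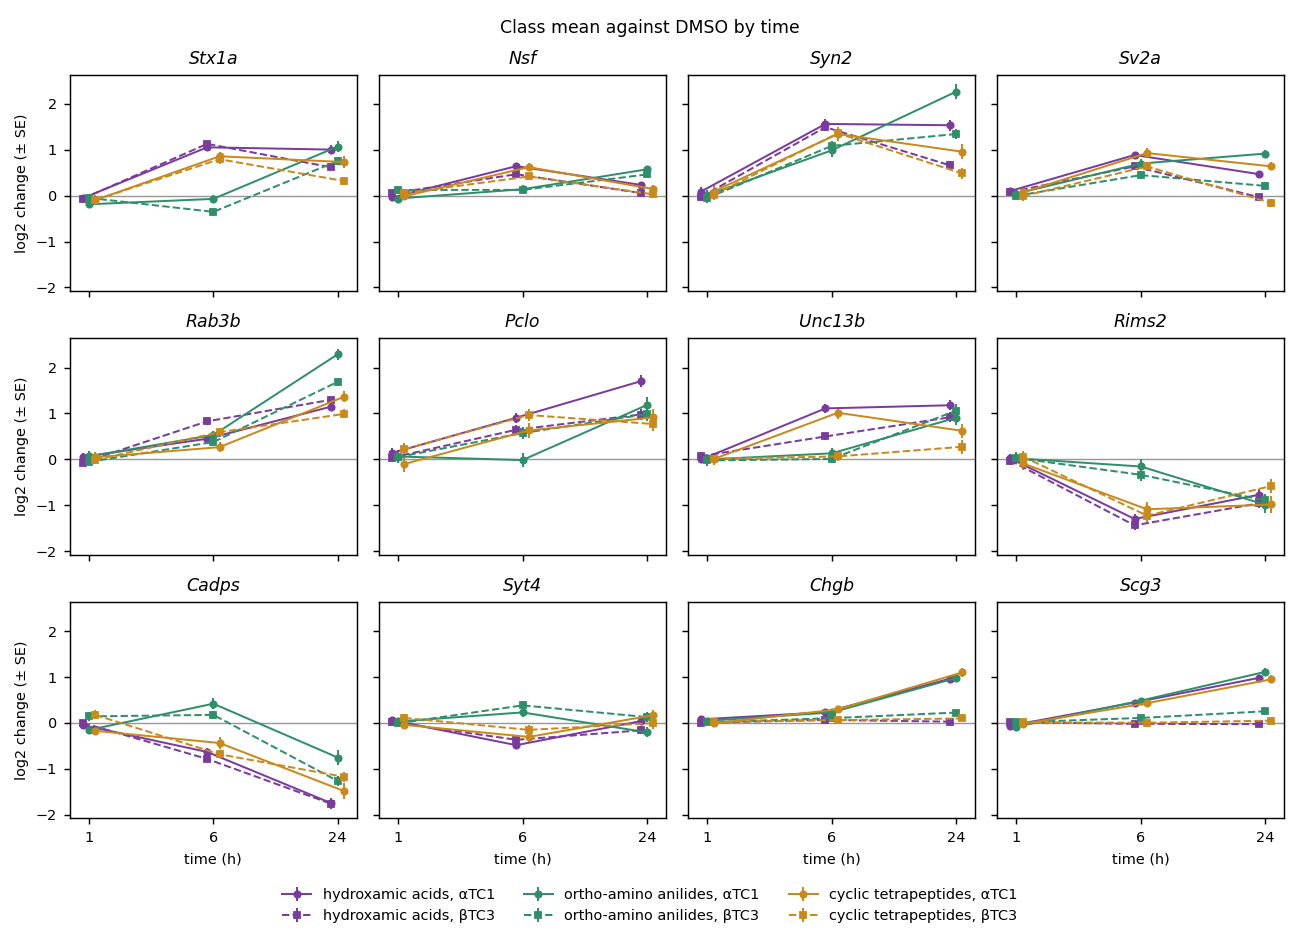
Class mean log2 change against DMSO with SE at 1, 6 and 24 h for 12 genes, by inhibitor class. Solid lines with circles are αTC1 and dashed lines with squares βTC3. Stx1a, Syn2 and Rims2 are displaced at 6 h under hydroxamic acids, whereas Rab3b, Cadps and the cargo genes move further by 24 h.

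The granule cargo and membrane group split the lines under hydroxamic acids. At 24 h 6 of 9 rose and 1 fell in αTC1 (median 0.34), whereas 4 fell in βTC3 (median -0.16). Among all genes this class called 26.1% higher, 24.3% lower for αTC1. For βTC3 the shares were 22.5% higher, 20.7% lower. The 4 falls were the only calls of the group in βTC3 and made up 44.4% of it. Among all genes there, 43.2% were called in either direction and 20.7% lower. Under anilides 8 of 9 rose in αTC1 (median 0.50) and 8 of 9 in βTC3 (median 0.32). With anilides 21.2% of all genes were called higher, 22.5% lower for αTC1. For βTC3 22.0% were called higher, 21.7% lower. At 6 h under hydroxamic acids the βTC3 changes of the 9 genes ran only from -0.09 to 0.07.

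Chgb, chromogranin B, a granule core protein, had DMSO arrays from 10.71 to 11.61 (median 11.16) at 24 h in αTC1 and hydroxamic acid arrays from 11.17 to 12.54 (median 12.16), with 21 of 22 above DMSO. In βTC3 the DMSO arrays ran from 12.37 to 12.55 (median 12.48) and the hydroxamic acid arrays from 12.29 to 12.76 (median 12.50), around each other. The changes were 0.96 ± 0.06 (adjusted p = 4.1e-22) and 0.03 ± 0.03 (adjusted p = 0.42), and they differed by 0.90 ± 0.08 (adjusted p = 8e-21). In βTC3, Chgb and Scg3 lie high on a scale whose highest log2 value was 13.7. Whether a rise is understated at such levels was not tested.

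Scg3 showed the same contrast. In αTC1 its DMSO arrays ran from 8.91 to 9.30 (median 9.04) and its hydroxamic acid arrays from 9.17 to 10.52 (median 10.16), with 21 of 22 above DMSO. In βTC3 the hydroxamic acid arrays (11.71 to 12.50) spanned the DMSO arrays (11.94 to 12.38). The changes of 0.98 ± 0.06 and -0.03 ± 0.03 differed by 0.98 ± 0.07 (adjusted p = 5.5e-25). The highest treated αTC1 arrays of Scg3 stayed below the lowest βTC3 DMSO array, whereas for Chgb they reached the βTC3 range.

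Scg2, Pam and Ptprn were called in opposite directions in the lines under hydroxamic acids at 24 h, beside Cplx1. Scg2, secretogranin II, changed by 0.38 ± 0.06 in αTC1 and -0.18 ± 0.04 in βTC3, a difference of 0.59 ± 0.09 (adjusted p = 3.1e-09). Pam changed by 0.52 ± 0.09 and -0.25 ± 0.10, a difference of 0.71 ± 0.15 (adjusted p = 2.5e-05), and Ptprn by 0.21 ± 0.06 and -0.20 ± 0.06, a difference of 0.37 ± 0.10 (adjusted p = 0.0023). Under anilides all 3 rose in both lines. Scg5, a chaperone of prohormone convertase 2, rose in αTC1 by 0.34 ± 0.08 under hydroxamic acids and 0.50 ± 0.12 under anilides, and in βTC3 was at -0.08 ± 0.07 and rose by 0.36 ± 0.09. The enzyme Cpe, a carboxypeptidase that trims prohormones, fell by 0.19 ± 0.04 in βTC3 under hydroxamic acids, while Ptprn2, another granule membrane protein, fell by 0.30 ± 0.11 in αTC1 under that class and rose by 0.57 ± 0.18 in βTC3 under anilides.

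Chga, chromogranin A, differed between the classes in αTC1 at 24 h, by -0.57 ± 0.07 for hydroxamic acids minus anilides (adjusted p = 1.2e-10), although their doses differed. Its changes were 0.60 ± 0.07 under anilides (adjusted p = 1.4e-11) and 0.04 ± 0.05 under hydroxamic acids (adjusted p = 0.59). All 8 anilide arrays (11.64 to 11.97) lay above the DMSO range (10.83 to 11.42), whereas the 22 hydroxamic acid arrays (10.73 to 11.42) overlapped with it, 1 of them above and 2 below.

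**Figure D4:**
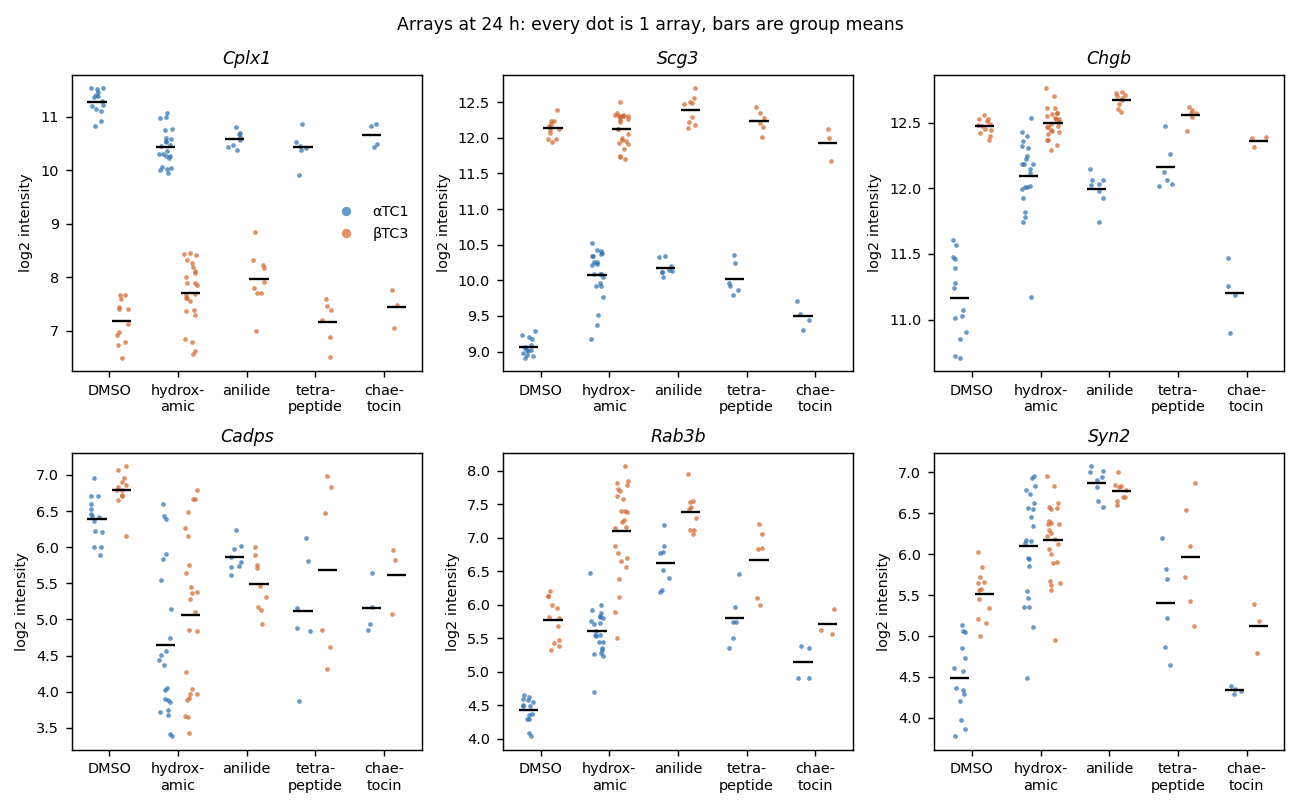
Log2 intensity of single arrays at 24 h (dots) with group means (bars) for Cplx1, Scg3, Chgb, Cadps, Rab3b and Syn2 in DMSO, the 3 inhibitor classes and chaetocin, by line. Chgb and Scg3 are raised in αTC1 and sit near DMSO in βTC3 under hydroxamic acids, and Cadps spreads over more than 3 log2 units within that class.

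Differences between the lines were counted with an interaction test. Under hydroxamic acids it called 14 of 39 genes at 6 h, 12 of them with the higher change in αTC1 (30.0% of all genes), and 20 at 24 h, 14 of them higher in αTC1 (33.9%). Under anilides it called 6 at 6 h (11.7%) and 18 at 24 h (28.6%). At 6 h these counts fell from 14 to 8 without replicate 3 and from 6 to 2 without replicate 2. Under hydroxamic acids at 24 h, Napa, Napb, Pclo, Rab3b, Snap25, Stx1a, Syn2, Syt1 and Unc13b rose in both lines. Cadps, Cplx2, Rims2, Syp and Syt5 fell in both. Of all genes, 50.4% were called in αTC1 and 43.2% in βTC3 under this class. The share of all genes called alike in both lines was not counted.

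**Figure D5:**
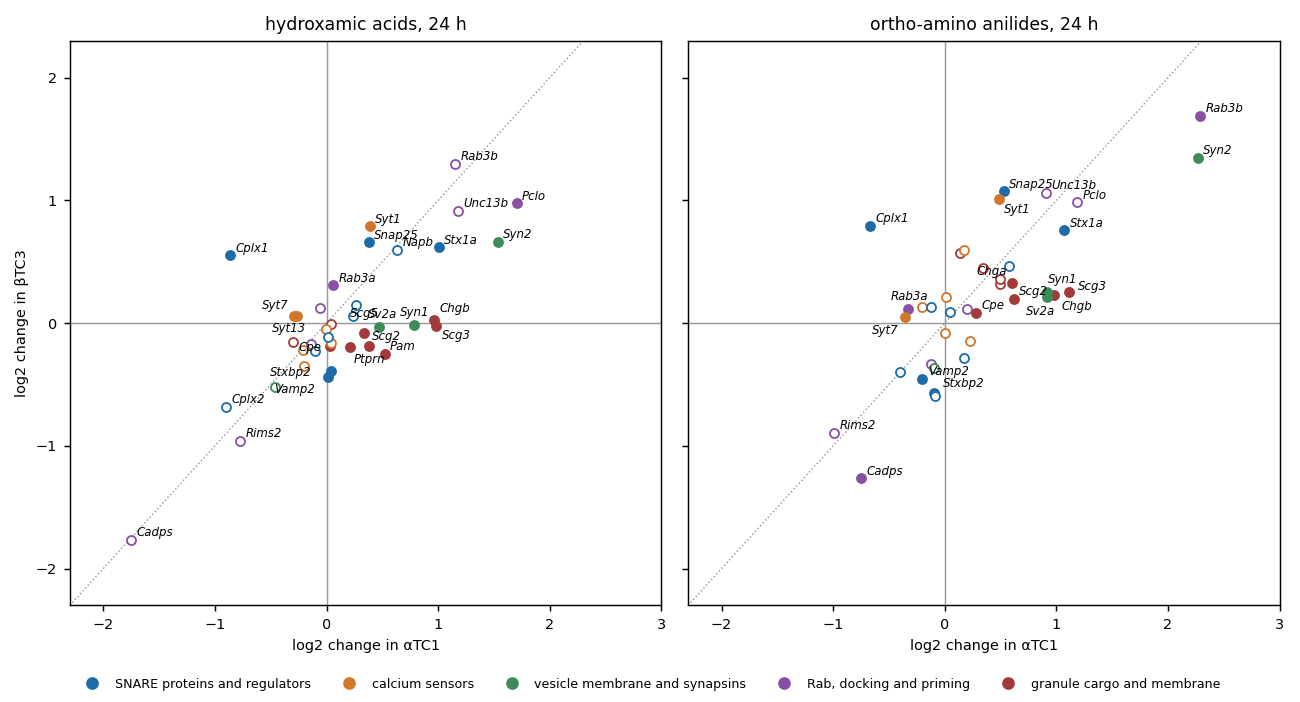
Change at 24 h in αTC1 (horizontal) against βTC3 (vertical), in log2 units, for each of the 39 genes under hydroxamic acids and under anilides, coloured by role. Filled points differ between the lines at an adjusted p under 0.05, and the dotted line marks equal change. Cplx1 stands alone at upper left, and Chgb and Scg3 lie to the right along the zero line of βTC3 under hydroxamic acids.

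The hydroxamic acid and anilide classes were also set against each other, although their doses differed. At 6 h 7 genes were higher and 10 lower under hydroxamic acids in αTC1 (44.8% of all genes), and 9 higher and 18 lower in βTC3 (50.2%). Stx1a led, higher by 1.12 ± 0.08 and 1.48 ± 0.08. At 24 h 4 were higher and 12 lower in αTC1 (27.6%), and 3 higher and 21 lower in βTC3 (32.5%). In βTC3 all 9 cargo genes were lower under hydroxamic acids, from Chgb (-0.20 ± 0.03) to Ptprn2 (-0.73 ± 0.16). The αTC1 count at 24 h fell from 16 to 6 without replicate 2, and to 4 when only the arrays compared were fitted, which also took the βTC3 count at 6 h from 27 to 14.

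A matched dose of 10 µM allowed 3 pairs of related compounds to be compared, with p-values adjusted over all genes in each comparison. ITF-2357 and pyroxamide are both hydroxamic acids. In αTC1 limma called 0 genes between them at 6 h (8 at an unadjusted p under 0.05, 0.788% of all genes) and 0 at 24 h (9 at an unadjusted p under 0.05, 2.34%). The 95% intervals at 24 h ran from -1.22 (Cadps) to 1.59 (Napb), and 32 of 39 lay within a log2 change of 1 in either direction. With 3 arrays a group, differences of any size inside these intervals remain possible. The count was 2 without replicate 3.

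In βTC3 the same pair differed. At 6 h 1 gene was higher and 2 lower under ITF-2357 (5.12% of all genes), and the count was 1 without replicate 1 and 0 without replicate 2. That count was also 1 without the batch term and 0 when only the arrays compared were fitted. At 24 h 4 were higher and 10 lower (16.3%), and the count was 7 without the batch term. Cadps was at 3.66, 3.89 and 4.04 under ITF-2357 and at 4.85, 5.28 and 5.37 under pyroxamide, a difference of -1.35 ± 0.19 (limma, adjusted p = 9.3e-08). Unc13b was at 5.10, 5.48 and 5.82 against 3.97, 4.14 and 4.46, a difference of 1.56 ± 0.26. Cplx1 was at 8.07, 8.20 and 8.32 against 6.79, 7.60 and 7.69, a difference of 1.30 ± 0.18. The arrays of the 2 compounds did not overlap in any of these genes. The call of Scg2 (-0.56 ± 0.10) and Scg3 (-0.54 ± 0.08) placed both cargo genes lower under ITF-2357.

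Pyroxamide and CI-994 differ, among other parts, in the zinc-binding group, a hydroxamic acid against an ortho-amino anilide. At 6 h 4 genes were higher and 6 lower under pyroxamide in αTC1 (30.2% of all genes), and 3 higher and 5 lower in βTC3 (30.1%). Stx1a in βTC3 was at 6.41, 6.78 and 6.96 under pyroxamide and at 5.01, 5.31 and 5.35 under CI-994, a difference of 1.54 ± 0.17 without overlap (limma, adjusted p = 1e-11). In αTC1 it was at 5.83, 5.89 and 5.89 against 5.33, 5.35 and 5.42, a difference of 0.89 ± 0.17, again without overlap. At 6 h in αTC1 Pclo (1.37 ± 0.29) and Unc13b (1.17 ± 0.24) were higher and Cadps (-1.17 ± 0.24), Syt13 (-1.09 ± 0.20) and Scg2 (-0.74 ± 0.14) lower under pyroxamide.

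At 24 h this pair differed in 7 genes in αTC1, 3 higher and 4 lower under pyroxamide (15.2% of all genes), and in 9 in βTC3, all lower (12.8%). In αTC1 Chga was at 10.82, 10.89 and 10.91 under pyroxamide and at 11.64 and 11.92 in the 2 CI-994 arrays, a difference of -0.76 ± 0.14. Rab3b was lower by -1.30 ± 0.24 and Cadps by -1.35 ± 0.33. In βTC3 Pam (-0.91 ± 0.24), Cplx1 (-0.84 ± 0.18) and Syt5 (-0.78 ± 0.17) led. Without replicate 2 the αTC1 count was 2. In βTC3 it was 4, 3 and 5 without replicate 1, 2 and 3 and 5 without the batch term, and the 6 h count fell from 8 to 5 without replicate 3.

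The nucleoside analogues 5-azadeoxycytidine and zebuarine, both inhibitors of DNA methylation, were the third pair. Pclo at 24 h in αTC1 was the single gene called, at 3.30, 3.59 and 3.80 under 5-azadeoxycytidine and at 4.33, 4.87 and 4.90 under zebuarine, a difference of -1.14 ± 0.31 (limma, adjusted p = 0.015, 6.19% of all genes). The groups did not overlap. All arrays under 5-azadeoxycytidine lie in the range of the markers of other cell types, so this difference may be understated. The count was 0 without replicate 2 or 3, 2 without replicate 1 and 5 when only the arrays compared were fitted. Limma called 0 genes at 6 h in αTC1 (8 at an unadjusted p under 0.05, 0.0762% of all genes, and 18 when only the arrays compared were fitted), 0 at 6 h in βTC3 (0 unadjusted, 0% of all genes) and 0 at 24 h in βTC3 (1 unadjusted, 0.229%). The βTC3 intervals at 24 h ran from -1.07 (Syn2) to 1.01 (Napb).

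Over single compounds, 283 of 1131 gene and compound pairs were called at 6 h and 361 at 24 h in αTC1 (25.0% and 31.9%, against a mean of 20.8% and 21.3% over all genes). In βTC3 271 and 323 were called (24.0% and 28.6%, against 22.1% and 18.2%). Rises outnumbered falls at 24 h, by 262 to 99 in αTC1 and by 183 to 140 in βTC3.

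The highest counts belonged to deacetylase inhibitors. In αTC1 at 24 h ITF-2357 raised 18 genes and lowered 9 (46.2% of all genes called) and MGCD-0103 raised 19 and lowered 5 (32.2%). In βTC3 PXD101 raised 11 and lowered 15 (42.4%) and CRA-024781 raised 10 and lowered 16 (39.2%). The anilide MS-275 raised 18 and lowered 5 there (32.9%). Under ITF-2357 Cadps was at 3.38, 3.41 and 3.68 in αTC1 and at 3.66, 3.89 and 4.04 in βTC3. The measured changes were -2.81 ± 0.22 and -3.02 ± 0.16, and these levels reach the range of the markers of other cell types, so they are not ranked against other compounds.

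Scriptaid was called at 6 h and not at 24 h, a difference between times that was not tested. It raised 12 genes and lowered 2 at 6 h in αTC1 (31.3% of all genes) and raised 10 and lowered 5 in βTC3 (30.4%). At 24 h limma called 0 in either line, with 6 in αTC1 (2 arrays) and 2 in βTC3 (3 arrays) at an unadjusted p under 0.05, beside 0.423% and 0.0508% of all genes. Syn2 in βTC3 was at 6.85, 6.92 and 7.02 at 6 h, above every DMSO array, and at 4.95, 5.62 and 5.90 at 24 h, within or below the DMSO range. The changes were 1.49 ± 0.14 and 0.03 ± 0.16.

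BRD6929, BRD5298 and BRD9773 showed the reverse timing. At 6 h limma called 0 genes for BRD6929 (1 in αTC1 and 9 in βTC3 at an unadjusted p under 0.05), 0 for BRD5298 (6 and 2), and for BRD9773 1 in αTC1 and 0 in βTC3 (4 unadjusted). The shares of all genes called were 0.102%, 2.26% and 2.63% in αTC1 and 0.263%, 0.652% and 3.46% in βTC3. At 24 h in αTC1 BRD5298 raised 17 and lowered 4 (32.4% of all genes), BRD6929 raised 17 and lowered 3 (25.5%) and BRD9773 raised 12 and lowered 1 (19.5%). Syn2 in αTC1 under BRD6929 was at 4.40, 4.61 and 4.70 at 6 h and at 5.84, 6.46 and 6.58 at 24 h, with changes of -0.13 ± 0.20 and 1.83 ± 0.22. The 24 h arrays lay above the DMSO range and the 6 h arrays within it. In βTC3 at 24 h BRD6929 raised 12 and lowered 6 (23.5%), BRD5298 raised 10 and lowered 5 (26.0%) and BRD9773 raised 8 and lowered 3 (18.2%).

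Another 5 code-named compounds acted at 6 h. In αTC1 BRD-A94377914 raised 11 genes and lowered 3 (29.0% of all genes), BRD-K17311666 raised 11 and lowered 4 (35.6%), BRD-K22912318 raised 11 and lowered 5 (34.4%), BRD-K90919562 raised 14 and lowered 5 (35.9%) and BRD-K92415738 raised 10 and lowered 4 (34.2%). Under each of them Syn2 had the highest change of the 39 genes, from 1.47 to 1.72, and Rims2 the lowest, from -1.33 to -1.14. At 24 h the calls were 7 up and 1 down (7.95%), 14 and 3 (29.4%), 11 and 2 (23.5%), 5 and 2 (13.4%), and for BRD-K92415738 0 (limma, 5 at an unadjusted p under 0.05, 0.534%). In βTC3 at 6 h BRD-A94377914 raised 10 and lowered 11 (37.9%), BRD-K17311666 raised 7 and lowered 12 (37.7%), BRD-K22912318 raised 6 and lowered 6 (32.9%), BRD-K90919562 raised 7 and lowered 8 (37.9%) and BRD-K92415738 raised 8 and lowered 9 (36.8%). Syn2 again had the highest change under each, from 0.79 to 1.44. The lowest was Syt11 under BRD-A94377914 (-1.05) and BRD-K17311666 (-1.03), and Rims2 under the others, from -1.72 to -1.07.

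The cyclic tetrapeptides were given at unequal doses, 1.4 µM apicidin and 0.12 µM HC-toxin, so their values stand side by side only. In αTC1 at 24 h apicidin raised 17 and lowered 5 genes (37.7% of all genes) and HC-toxin raised 12 and lowered 2 (21.9%). In βTC3 apicidin raised 9 and lowered 9 (36.1%) and HC-toxin raised 2 (2.20%), Rab3b and Snap25. Cadps in βTC3 was at 4.31, 4.63 and 4.86 under apicidin, below the DMSO range, and at 6.47, 6.83 and 6.98 under HC-toxin, within it. Pam in αTC1 under apicidin was at 8.27, 8.61 and 10.32, so that 1 array stood far above the others.

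Chaetocin, an inhibitor of histone lysine methyltransferases, gave mostly rises at 6 h and mostly falls at 24 h; the difference between the times was not tested. In αTC1 it raised 12 genes at 6 h (32.7% of all genes), and at 24 h it raised 2 and lowered 18 (47.9%). In βTC3 it raised 4 and lowered 1 at 6 h (23.6%), and raised 3 and lowered 14 at 24 h (30.9%). Sv2a was at 4.70, 4.91, 4.97 and 5.18 in the 4 αTC1 arrays at 24 h and at 5.19, 5.39 and 5.57 in the 3 βTC3 arrays. All 7 lay below the DMSO ranges of 5.93 to 6.91 and 6.07 to 6.86, and the changes were -1.30 ± 0.10 and -1.25 ± 0.11 (adjusted p = 7.7e-18 and 8.7e-16). In αTC1 Snap25 changed by -0.98 ± 0.11, Syp by -1.12 ± 0.18 and Cadps by -1.25 ± 0.20, while Rab3b (0.69 ± 0.15) and Scg3 (0.41 ± 0.10) were the 2 that rose.

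AMI-1, an inhibitor of protein arginine methyltransferases, and RG-0108 called 0 genes at 6 and 24 h in both lines by limma. At an unadjusted p under 0.05 AMI-1 gave at most 4 genes and RG-0108 at most 6 in a line and time, and over all genes the share called was 0, apart from 0.0423% under RG-0108 in αTC1 at 6 h. BIX-01294, a G9a inhibitor, lowered Syt11 in βTC3 at 6 h by 1.42 ± 0.30 (adjusted p = 0.00053) and raised Syt4 by 0.61 ± 0.12. The Syt11 arrays were at 5.65, 5.67 and 7.39, so 2 lay below the DMSO range of 6.98 to 8.03 and 1 within it. 5-azadeoxycytidine lowered Syn2 in βTC3 at 24 h by 0.88 ± 0.17, with arrays at 4.70, 4.80 and 4.94, all below the DMSO range (8.38% of all genes called).

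Of 94 other genes of the pathway 60 were measured. At 24 h hydroxamic acids raised 23 and lowered 11 in αTC1 (56.7% of the 60 called, beside 50.4% of all genes), and raised 16 and lowered 18 in βTC3 (56.7% beside 43.2%). The anilides raised 19 and lowered 9 in αTC1 (46.7% beside 43.8%) and raised 18 and lowered 13 in βTC3 (51.7% beside 43.7%). Cacna1c, a pore subunit of L-type calcium channels, fell under hydroxamic acids by 1.39 ± 0.10 in αTC1 and 1.16 ± 0.08 in βTC3. Syt2 fell by 1.58 ± 0.09 and 0.64 ± 0.08, and the exocyst subunit Exoc7 by 1.50 ± 0.10 and 0.51 ± 0.07. Stxbp3 rose by 1.16 ± 0.09 and 0.79 ± 0.07, the SNARE Vamp7 by 1.19 ± 0.08 and 0.39 ± 0.06, and Rab3c by 0.64 ± 0.08 and 1.14 ± 0.08. Scgn, secretagogin, a calcium-binding protein of endocrine cells, rose in αTC1 by 0.79 ± 0.12 and fell in βTC3 by 1.03 ± 0.10.

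The repressor gene Rest rose in βTC3 from its low level under hydroxamic acids, by 1.11 ± 0.08 at 6 h and 0.37 ± 0.06 at 24 h, and under anilides by 0.35 ± 0.10 and 0.63 ± 0.08. In αTC1 its changes at 6 and 24 h did not pass the test, between -0.09 and 0.09. Its part in the changes of the genes above was not tested.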

How the data were processed

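RNA of αTC1 and βTC3 was hybridised to Affymetrix HT mouse arrays, 594 in all. The deposited intensities were made by the authors with RMA, a method named in the submitters' processing notes. Its version and any batch step are not given in the sources used here. No value was at or below 0, and log2 was taken here.

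Genes were named from the platform annotation. Of 22716 probe sets 18003 had 1 symbol, 287 several and 4426 none, and for each of 11807 genes the probe set with the highest mean was kept. For each line and time, limma 3.58.1 (R 4.3.3) fitted all arrays with compound and array batch (7 batches) as terms, and p-values were adjusted over all genes by Benjamini-Hochberg. An adjusted p under 0.05 counted as called. Class effects weight compounds equally, and line differences in effect were tested as an interaction. Compound was a fixed term, so errors and p-values of class effects, class differences and these interactions leave out the spread between compounds. Errors are standard errors unless marked SD. DMSO titles carry no replicate number. The number of arrays limits the precision.

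The genes, role lists and tests were chosen with earlier results of these data known. Named were, in each role group, the called genes with the largest changes in either direction under a class at 24 h or between the lines in DMSO (up to 3 a direction), genes called in opposite directions in the lines, those called with the most or fewest compounds, and up to 4 other pathway genes a direction. Genes or compounds singled out beyond this were chosen after their values were seen. The fit was tested on simulated data with 11807 genes, of which 100 were changed at each size, with independent noise for each gene. In the arrays far more genes were called and some genes deviated together, so recovery there may differ. For hydroxamic acids in αTC1 at 24 h it recovered 99.0% of changes of 0.5 and 100% of changes of 1 on the log2 scale, and for PXD101 in βTC3 64.0% and 100%. For the line difference under hydroxamic acids at 24 h it recovered 83% and 100%. Unchanged genes called numbered 15, 8 and 9, in the same order. Of 16 genes with several probe sets, 0 of 192 comparisons had probe sets called in opposite directions. Promoter windows are RefSeq's for GRCm38.p6.

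Alternatives were median-centring, quantile normalization, leaving out genes below the median level, the mean of all probe sets, no batch term, the plate as a random block, leaving out each replicate number, batch or class compound, fitting only the arrays compared, and 1 adjustment over all comparisons of a compound.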

Additional observations from a re-analysis of the deposited data

Results flagged for a closer look

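In 2 groups of 4 to 10 arrays, 78 tests looked for an array far from the rest of its group, and 5 found one, where chance gives about 1 in 20. In the αTC1 chaetocin group at 24 h (4 arrays) Syt11 had 1 array at 6.25 against 7.59 to 7.72 in the others, and Syt13 had 1 at 6.22 against 6.78 to 6.79. In the same group Pclo had 1 array at 4.60 against 3.79 to 3.89, and Ptprn 1 at 9.44 against 8.85 to 8.94. In the βTC3 DMSO group at 6 h (10 arrays) Stx1a had 1 array at 6.32 against 5.53 to 5.85, and the hydroxamic acid arrays still lay above it.

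The effect of a class differed between the lines in 14 of 39 genes under hydroxamic acids at 6 h and 20 at 24 h, and in 6 and 18 under anilides, by limma's interaction test at an adjusted p under 0.05. Genes called in opposite directions were Cplx1 under hydroxamic acids at 6 h (αTC1 effect minus βTC3 effect -0.59) and 24 h (-1.47) and under anilides at 24 h (-1.51), and, under hydroxamic acids at 24 h, Pam (0.71), Ptprn (0.37) and Scg2 (0.59).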

How the results depend on the processing

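Of the counts of genes called under each alternative, 557 lay within 1.5 times the reported count and 37 did not. Leaving out 1 replicate number at a time gave 11 to 15 in place of 18 for anilides in αTC1 at 6 h (11 without CI-994), and 8 to 13 in place of 14 and 2 to 6 in place of 6 for the line difference at 6 h under hydroxamic acids and anilides. It gave 6 to 11 in place of 16 for hydroxamic acids minus anilides in αTC1 at 24 h. For ITF-2357 minus pyroxamide it gave 0 to 2 in place of 0 in αTC1 at 24 h and 0 to 3 in place of 3 in βTC3 at 6 h. For pyroxamide minus CI-994 it gave 2 to 6 in place of 7 in αTC1 at 24 h, 5 to 10 in place of 8 in βTC3 at 6 h and 3 to 5 in place of 9 in βTC3 at 24 h. For 5-azadeoxycytidine minus zebuarine in αTC1 at 24 h it gave 0 to 2 in place of 1, and for pairs at 1 h in βTC3 0 to 3 in place of 0.

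Fitting only the arrays compared gave 4 in place of 16 for hydroxamic acids minus anilides in αTC1 at 24 h and 14 in place of 27 in βTC3 at 6 h, 18 and 5 in place of 0 and 1 for 5-azadeoxycytidine minus zebuarine in αTC1 at 6 and 24 h, and 0 in place of 3 for ITF-2357 minus pyroxamide in βTC3 at 6 h. No batch term gave 0 in place of 1 for 5-azadeoxycytidine minus zebuarine in αTC1 at 24 h, 1 in place of 3 and 7 in place of 14 for ITF-2357 minus pyroxamide in βTC3 at 6 and 24 h, and 5 in place of 9 for pyroxamide minus CI-994 there at 24 h. Quantile normalization, or leaving out genes below the median level, gave 2 in place of 1 for 5-azadeoxycytidine minus zebuarine in αTC1 at 24 h. A single adjustment over all comparisons of a compound called 6 pairs in αTC1 and 5 in βTC3 at 1 h in place of 0. For DMSO at 24 h against 1 h, the plate block gave 5 in place of 3 in αTC1 and 4 in place of 0 in βTC3, where median-centring, the mean of probe sets, and leaving out batch 8 or batch 10 gave 1 each. The cause was not tested for any of these.

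Without apicidin the tetrapeptide count in βTC3 at 24 h was 2 in place of 12. The change then had the other sign in βTC3 for Stx1a (-0.11), Vamp8 (0.33), Syn2 (-0.073), Rims2 (0.026) and Pclo (-0.15), and in αTC1 for Napa (-0.074). No other single value changed sign while called, with 6211 on the same side of the threshold, 168 newly past it and 227 no longer past it.

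Same-numbered arrays were not paired by the labels, and over 12 comparisons their deviations correlated at -0.507 to 0.426. With the replicate number as a block, hydroxamic acids minus anilides called 17, 13, 26 and 25 genes (αTC1 at 6 and 24 h, then βTC3), ITF-2357 minus pyroxamide 0, 0, 3 and 14, 5-azadeoxycytidine minus zebuarine 0, 1, 0 and 0, and pyroxamide minus CI-994 11, 7, 8 and 8, all within 1.5 times. Every array correlated best with its own number in 3 of the 12. Against DMSO no paired analysis was possible because the DMSO titles carry no number.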

Other observations

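Within groups, the genes of the list varied by unequal amounts. Over the 594 arrays, after subtracting each group's mean, the SD of the log2 deviations was 0.603 for Napb, 0.525 for Cplx2, 0.493 for Syt11 and 0.416 for Vamp3, beside a median of 0.215 over the 39 genes.

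Some of these deviations moved together. Pearson's r was 0.870 between Vamp3 and Napb, 0.816 between Syt11 and Scg5, 0.798 between Napb and Syt11, 0.720 between Napb and Scg5 and -0.694 between Vamp3 and Syn1. Of 741 pairs of genes 20 had r above 0.5, and the median was 0.0185. These values are descriptions, since arrays of a group share the line and arrays of a batch their processing.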
